A study of Mus musculus with 8 samples.

Results

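Ezh2 is the methyltransferase subunit of Polycomb repressive complex 2, which places the repressive mark H3K27me3 on histone H3. The map described here is the pair of Ezh2 peak lists made by chromatin immunoprecipitation and sequencing (ChIP-seq) in EML_C1, a mouse progenitor line of blood cells that grows in stem cell factor. It holds the 2 lists that the labels name as Ezh2, replicates 1 and 2, with 178354 and 159007 peaks. Together these are 337361 of the 866451 peaks in the 6 lists of the series. The other 4 lists are for Runx1 and H3K27me3, and 2 further libraries are inputs. The cells are of strain C57BL/6, carry no mutation or treatment that the labels name, and were fixed with DSG, a protein crosslinker, and then formaldehyde before the Ezh2 and Runx1 antibodies were applied. The labels do not say whether the replicates came from separate cultures, so differences between them may be technical. No test between groups exists within 1 antibody, and all values below are descriptions of these libraries.

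In mammals Polycomb repressive complex 2 is known to gather at CpG-rich starts of genes that are silent, above all genes of embryonic development, and to spread from there over wider domains. In blood progenitors its loss alters lineage choice, and in human the gene is mutated in some leukaemias of early T lineage. Each peak has a summit, the position of its highest signal, and a fold enrichment, a linear ratio that the authors' peak caller gives to it. A region of both replicates is a stretch of merged peaks to which both lists contribute, with an overlap of at least 1 bp. Its fold is given as the highest peak of each replicate inside it. The 2 lists gave 65288 such regions, which covered 39.0 Mb, or 1.43% of the chromosomes.

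The sequences below are the promoter windows, 250 bases before to 50 after the start of the gene, under the 4 strongest Ezh2 regions that lay on such a window in both replicates. The last one printed is that of the strongest such region with at most 4 CpG pairs. They are shown because the windows under strong regions held more CpG pairs than the others, as described below. Sequences are from RefSeq, build GRCm38.p6, printed 5′ to 3′ on the strand of the gene, with each CG pair in capitals. The 4 strong ones are those of Itsn1 (chr16:91729121-91729420, plus strand), an endocytic scaffold gene, Ptpru (chr4:131838229-131838528, minus strand), a receptor phosphatase gene, Tyro3 (chr2:119799264-119799563, plus strand), a receptor kinase gene, and L3mbtl3 (chr10:26374023-26374322, minus strand), a gene of a methyl-lysine reader. They hold 23, 40, 31 and 42 CpG pairs. The window of Cpeb3 (chr19:37176014-37176313, minus strand), a gene of an RNA-binding protein of translation, holds 4.
Itsn1: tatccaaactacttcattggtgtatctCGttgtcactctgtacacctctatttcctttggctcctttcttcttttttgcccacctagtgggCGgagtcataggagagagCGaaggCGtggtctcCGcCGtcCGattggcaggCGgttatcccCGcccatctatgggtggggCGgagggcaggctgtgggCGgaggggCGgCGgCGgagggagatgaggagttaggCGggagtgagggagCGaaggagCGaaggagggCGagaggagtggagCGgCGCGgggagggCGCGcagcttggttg
Ptpru: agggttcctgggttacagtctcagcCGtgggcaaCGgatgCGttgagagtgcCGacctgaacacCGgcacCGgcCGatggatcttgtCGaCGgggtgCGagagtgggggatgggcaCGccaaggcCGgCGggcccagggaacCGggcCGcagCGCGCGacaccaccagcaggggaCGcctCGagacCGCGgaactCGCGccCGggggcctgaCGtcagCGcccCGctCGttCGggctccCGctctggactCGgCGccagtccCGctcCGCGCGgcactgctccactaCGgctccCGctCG
Tyro3: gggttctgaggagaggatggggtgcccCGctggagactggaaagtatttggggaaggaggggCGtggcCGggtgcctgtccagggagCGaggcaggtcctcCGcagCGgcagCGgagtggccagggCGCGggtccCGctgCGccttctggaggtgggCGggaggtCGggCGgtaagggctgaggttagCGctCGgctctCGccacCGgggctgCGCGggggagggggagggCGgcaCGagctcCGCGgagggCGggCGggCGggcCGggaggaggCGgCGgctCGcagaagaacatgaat
L3mbtl3: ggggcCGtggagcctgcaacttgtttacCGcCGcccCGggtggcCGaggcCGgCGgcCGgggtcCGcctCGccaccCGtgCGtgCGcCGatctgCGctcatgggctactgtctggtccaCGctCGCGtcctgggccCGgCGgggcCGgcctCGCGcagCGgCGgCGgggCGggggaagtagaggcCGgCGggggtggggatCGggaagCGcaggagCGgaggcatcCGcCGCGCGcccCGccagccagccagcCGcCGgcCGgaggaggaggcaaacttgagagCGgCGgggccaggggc
Cpeb3: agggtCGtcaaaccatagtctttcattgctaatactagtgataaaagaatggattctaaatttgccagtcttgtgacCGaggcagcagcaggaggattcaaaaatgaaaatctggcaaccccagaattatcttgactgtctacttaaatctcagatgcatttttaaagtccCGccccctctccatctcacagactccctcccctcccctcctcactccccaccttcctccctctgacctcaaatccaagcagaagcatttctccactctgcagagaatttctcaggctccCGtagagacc

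The region over the Itsn1 window had folds of 35.3 and 23.7 in replicates 1 and 2, that of Ptpru 31.2 and 23.9, that of Tyro3 28.8 and 20.4, and that of L3mbtl3 27.8 and 20.7. The region over Cpeb3 had 13.2 and 10.5. All 5 were higher in replicate 1. The Bmi1 region on chromosome 2 (18677057 to 18678890), the highest of the map, had folds of 77.4 and 90.4 and was higher in replicate 2. Bmi1 encodes a core subunit of Polycomb repressive complex 1, the partner complex that reads the mark. Its promoter window is not printed because the peak of replicate 2 did not touch it. Among the 10 regions with the highest mean fold, 9 touched a protein-coding gene. The exception, with folds of 23.8 and 22.4, lay 20645 bp from the homeobox gene Dmbx1 on chromosome 4. The others touched Rabgap1l, Brwd1, Gkap1 and Heg1, a gene of heart and vessel development, with mean folds between 20.7 and 23.7.

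The strong part of the Ezh2 map was found by both replicates and the weak part mostly by one. In replicate 1, 70866 peaks overlapped a peak of replicate 2, which is 39.7% of the list, and in replicate 2, 71500 peaks, or 45.0%, overlapped one of replicate 1. Of peaks with a fold of 10 or more, all 286 of replicate 1 and all 131 of replicate 2 had a partner. At a fold of 5 to 10 it was 1281 of 1294 peaks in replicate 1 and 812 of 816 in replicate 2. At a fold of 3 to 5, 61.2% of replicate 1 peaks and 66.8% of replicate 2 peaks had a partner. At a fold of 2 to 3, which held 66.8% and 69.3% of the lists, the shares were 35.3% and 40.8%. Nearly every strong peak of either list thus had a partner, while most peaks in the lists were weak.

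Width gave the same order. All 256 peaks of replicate 1 of 3 kb or more and all 205 of replicate 2 had a partner, against 25.9% and 30.4% of peaks under 250 bp. Wide peaks meet others more often because of their size alone, so strength was also compared within widths from 200 to under 300 bp. There 40.9% of replicate 1 peaks and 45.6% of replicate 2 peaks with a fold of 3 to 5 had a partner, against 29.5% and 32.1% at a fold of 2 to 3. Under a fold of 2 it was 22.9% and 33.0%, so the lowest classes of replicate 2 were not in order. A position does not depend on width. The summits of 29.6% of replicate 1 peaks lay inside a peak of replicate 2, whose peaks cover 1.97% of the chromosomes, and those of 34.7% of replicate 2 peaks lay inside a peak of replicate 1, which cover 2.23%. These shares were 15.1 and 15.6 times the covered length of the other list.

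**Figure D1:**
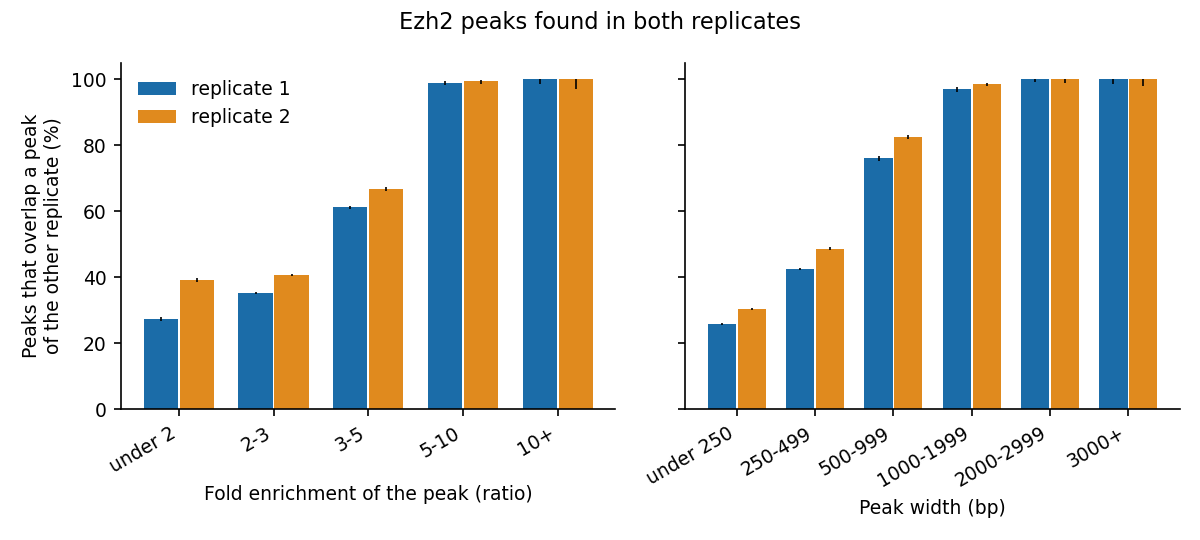
Share of Ezh2 peaks (%) that overlap a peak of the other replicate, by fold enrichment of the peak (left) and by peak width in bp (right), for replicate 1 (blue) and replicate 2 (orange), with Wilson 95% intervals that cover counting error only. From a fold of 5 upward nearly all peaks of both lists have a partner, and under 250 bp it is 25.9% and 30.4%.

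Peaks of both replicates were moderately wider and higher than peaks of 1 replicate only. In replicate 1 the median width was 327 bp for peaks of both and 245 bp for the others, and in replicate 2 it was 318 and 244 bp. The mean ratio was 1.32 ± 0.0222 (SD, n = 2). Median folds of the same classes were 2.61 and 2.37 in replicate 1, and 2.58 and 2.36 in replicate 2. The middle of the distributions overlapped, with quartiles of 2.29 to 3.12 for peaks of both and 2.16 to 2.71 for the others in replicate 1. The upper ends differed more. The highest peak of both replicates had 77.4 and 90.4, while the highest peak found only in replicate 1 had a fold of 6.86 and the highest found only in replicate 2 had 5.80.

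The strongest peaks without a partner often had a peak of the other list close by. Ezh2 peaks lay densely along the chromosomes, as described below, and this nearness was not compared with that of other peaks. The highest of replicate 1 lay 4723 bp from Hectd2 on chromosome 19, and the nearest replicate 2 peak was 1484 bp away. The next lay in Jhy and in Aox2, an aldehyde oxidase gene, at 1072 and 412 bp from a replicate 2 peak. The next, 44555 bp from the carboxypeptidase gene Cpz, was 554 bp from one. The last of the 5, 526240 bp from Basp1, was 25915 bp from the nearest one. In replicate 2 the highest lay 33469 bp from Cenpc1, a centromere protein gene, and 730 bp from a replicate 1 peak. The others were in Zfp946 and near Dusp8, Ppp4r4 and Fhl5, at 59 to 5582 bp from a replicate 1 peak.

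In Ezh2 lists cut to equal length, the share that met fell as the lists grew longer. A peak whose partner ranked below the cut counted as having none. Of the 100 peaks with the highest fold, 78 of replicate 1 met one of the top 100 of replicate 2. Of the top 1000 the number was 672, and of the top 10000 it was 3341. These are 78.0%, 67.2% and 33.4% of the Ezh2 peaks, against 81.0%, 84.8% and 87.1% in the Runx1 lists. The lowest fold among the top 10000 was 3.65 and 3.39 in the Ezh2 lists and 8.54 and 10.1 in the Runx1 lists. Each antibody gives 1 value of agreement here, so the difference has no test.

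Folds correlated weakly over all pairs, and r was higher among pairs of high fold. Over 56603 pairs in which each peak overlapped exactly 1 peak of the other list, Pearson's r of log2 fold was 0.37 and Spearman's rho was 0.24. Over 453 pairs with a mean fold of 5 or more, r was 0.76, and over 65 pairs of 10 or more it was 0.86. These pairs share libraries and input, so the values describe the lists only. The size of r also depends on the range of folds, and 42518 of the 56603 pairs had a mean fold of 2 to 3. That range was not made equal between sets of pairs or between antibodies. Folds differed more than 2-fold in 658 pairs, or 1.16%. The median log2 ratio of replicate 2 over replicate 1 was -0.06 over all pairs and -0.39 among pairs of 5 or more, so that strong peaks stood lower in replicate 2. Runx1 pairs had an r of 0.93 over 42483 pairs, but folds differed more than 2-fold in 1385 of them, or 3.26%, a larger share than for Ezh2.

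Most Ezh2 regions were short, and strong regions made up a larger share of the wide ones. The median width was 469 bp. Regions from 250 to under 500 bp numbered 33746, or 51.7% of all, and had a median of mean folds of 2.54. At 1 to 2 kb there were 5074 regions with a median of 3.21, and at 2 to 3 kb 829 regions with 4.39. At 3 kb or more there were 436 regions, of which 322 had a mean fold of 5 or more. In the whole map 1055 regions, or 1.62%, had such a fold. Of these, 313 measured 2 to 3 kb and 298 measured 1 to 2 kb. The strongest region, at Bmi1, was 1834 bp wide. Regions of 1 kb or more were 9.71% of all and held 26.8% of the covered length. Fold and width come from the same peaks and tend to grow together, so their order is a description.

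The 5 widest regions lay in or near homeobox genes, which pattern the embryo. The widest spanned 30618 bp over Hoxc9, Hoxc8 and Hoxc6 on chromosome 15 (102974632 to 103005249) and was built of 6 peaks in replicate 1 and 9 in replicate 2. Its highest folds were 13.6 and 12.1. The others measured 10415 bp at Lmx1b, a limb and kidney patterning gene, 10381 bp at Hoxc11, 9712 bp at Hoxb6 and 9113 bp at 3338 bp from Hoxb9. The peak caller thus split wide stretches into several peaks, and differently in each list. In the whole map 8685 regions, or 13.3%, held more than 1 peak of a list, against 3.51% of Runx1 regions.

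Summits of paired Ezh2 peaks lay a median of 91 bp apart (95% interval of the median 90.0 to 92). Of the pairs, 31.1% were within 50 bp and 19.6% over 200 bp apart, and 53.7% were within 100 bp. The chromatin had been sheared to 200 to 500 bp. Paired peaks overlap by definition, and the median peak width was 267 bp in both lists. Distances below the fragment size are thus largely set by the pairing and do not by themselves show agreement. Runx1 pairs had a median of 22 bp, and 78.8% of them were within 50 bp. There was no shift to 1 side, as the median of replicate 2 minus replicate 1 was 0 bp for Ezh2.

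Summits of strong pairs lay closer together. Where the weaker peak had a q above 0.01 the median distance was 94 bp, and where it had a q of 1e-10 or less it was 41 bp, over 50802 and 513 pairs. Within pairs whose narrower peak was under 500 bp, the distances for the same classes were 92 and 10.0 bp, the second over 54 pairs. In those 54 pairs 88.9% of summits were within 50 bp. In Runx1 pairs of that strength and width the median was 16 bp over 10289 pairs. The distance was largest for Ezh2 pairs whose narrower peak was 500 to under 1000 bp wide, with a median of 130.0 bp, and smaller again, at 47 bp, for the 53 pairs of 3 kb or more. By fold the order was uneven at the low end, with 73 bp under a fold of 2 and 96 bp at 2 to 3.

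**Figure D2:**
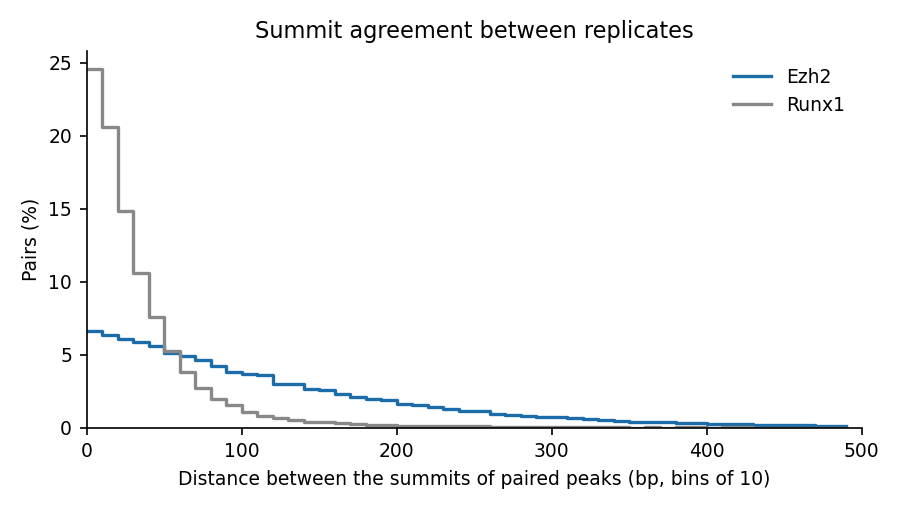
Distance between the summits of paired peaks in replicates 1 and 2 (bp, in bins of 10) against the share of pairs (%), for 56603 Ezh2 pairs (blue) and 42483 Runx1 pairs (grey). The Ezh2 curve is the wider one, with a median of 91 bp, and the Runx1 curve is higher near 0, with a median of 22 bp.

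Along the chromosomes Ezh2 regions came in dense chains. The median gap between neighbouring regions was 2654 bp, while even spacing of the regions would put 41699 bp between their starts. For Runx1 the median gap was 12989 bp. A cluster was defined as 5 or more regions with gaps of at most 5 kb. There were 3253 clusters, and they held 30203 regions, or 46.3% of the map. For Runx1 450 clusters held 6.11% of 44027 regions. With only the strongest 44027 Ezh2 regions, a setting chosen after the data were seen, the share was 35.5%. At an equal number of regions the Ezh2 share was thus still above that of Runx1, with no test.

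Regions in clusters were mostly weak, as in the whole map. Over all regions the median of mean folds was 2.63, and 1.62% had a fold of 5 or more. Regions in the largest clusters were somewhat stronger than single ones. In clusters of 20 or more, 181 in number, the median of mean folds was 2.80, and in chains of 1 region it was 2.53. Regions with a fold of 5 or more made up 2.98% of the 5405 regions in such large clusters and 0.894% of 13761 single regions. When weaker peaks were left out at a q threshold of 0.01, 10.0% of the 9089 regions were in clusters, and at 1e-05 1.99% of 2112 were. Fewer regions leave larger gaps by construction.

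The largest cluster, with 110 regions over 244 kb of chromosome 15 (102904579 to 103148592), covered the HoxC genes from Hoxc13 to Hoxc4. Its peaks numbered 160 in replicate 1 and 179 in replicate 2 and covered 74.0% and 74.7% of it. The second, with 88 regions, spanned 161 kb of chromosome 9 over Cd3e, a T cell receptor subunit gene, the adhesion genes Mpzl2, Mpzl3 and Jaml, and the sodium channel subunit genes Scn2b and Scn4b. It was covered to 49.2% and 43.1%. The third, with 76 regions on chromosome 6, held Stambp, the lectin genes Clec4f and Cd207, and the homeobox gene Vax2, at 48.0% and 48.2%.

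Clusters 4 to 10 held 59 to 70 regions each. The first of them, with 70, lay in Skap1, a T cell adaptor gene on chromosome 11. A cluster of 68 on chromosome 15 touched no protein-coding gene and lay 19069 bp from Calcoco1. Genes in the remaining 5 included Slc6a17 with Ubl4b, the calcium channel gene Cacna1g with Abcc3 and 3 neighbours, the ammonia transporter gene Rhcg, the calcium channel subunit gene Cacna2d2, and Tmprss13 with the ion transport regulators Fxyd6 and Fxyd2. In all 10, coverage by replicate lay between 37.2% and 74.7%. Replicate 1 covered more than replicate 2 in 6 of the 10.

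Density differed between chromosomes in the same way in both replicates. Replicate 1 had between 49.9 peaks per Mb on chromosome 10 and 116 on chromosome 11, and replicate 2 had 46.4 and 103 on the same chromosomes. Chromosomes 9 and 19 followed chromosome 11, at 109 and 107 peaks per Mb in replicate 1. Runx1 was also densest on chromosome 11, at 39.2 and 41.2 peaks per Mb in its replicates, and next on 19. On chromosome 10, the lowest for Ezh2, Runx1 had 26.3 and 26.9, beside autosomal medians of 25.2 and 25.7. Chromosomes 11, 19 and 9 held 13.2, 11.5 and 9.65 protein-coding genes per Mb, beside an autosomal median of 7.66. Other chromosomes did not follow this order. Chromosome 17 held 11.2 genes per Mb but had 58.7 and 49.7 Ezh2 peaks per Mb, below the autosomal medians of 64.2 and 56.6. Chromosome 6 held 7.53 genes per Mb and had 83.0 and 75.3 peaks per Mb, above those medians. A link between gene density and peak density was not tested. Counted in windows of 1 Mb, the lists had a Pearson's r of 0.98 over 2732 windows, which are neighbours in 1 genome and not independent. The density was concentrated, as 313 windows, or 11.5%, held 50% of the regions. On the autosomes 479 of 2470 windows, or 19.4%, held no region of both replicates.

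The X chromosome was nearly bare of Ezh2 peaks. It had 619 peaks in replicate 1 and 510 in replicate 2, or 3.62 and 2.98 per Mb. The autosomal medians were 64.2 and 56.6 per Mb, which is 17.7 and 18.98 times higher. Regions of both replicates numbered 109 on X, of which 0 lay in clusters, and 71.3% of its windows of 1 Mb were empty. Runx1 peaks were also scarcer on X, at 5.59 and 6.21 per Mb, with autosomal medians 4.52 and 4.13 times higher. Genes were less scarce, with 5.65 protein-coding genes per Mb on X and an autosomal median of 7.66. Ezh2 and Runx1 share an input library.

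**Figure D3:**
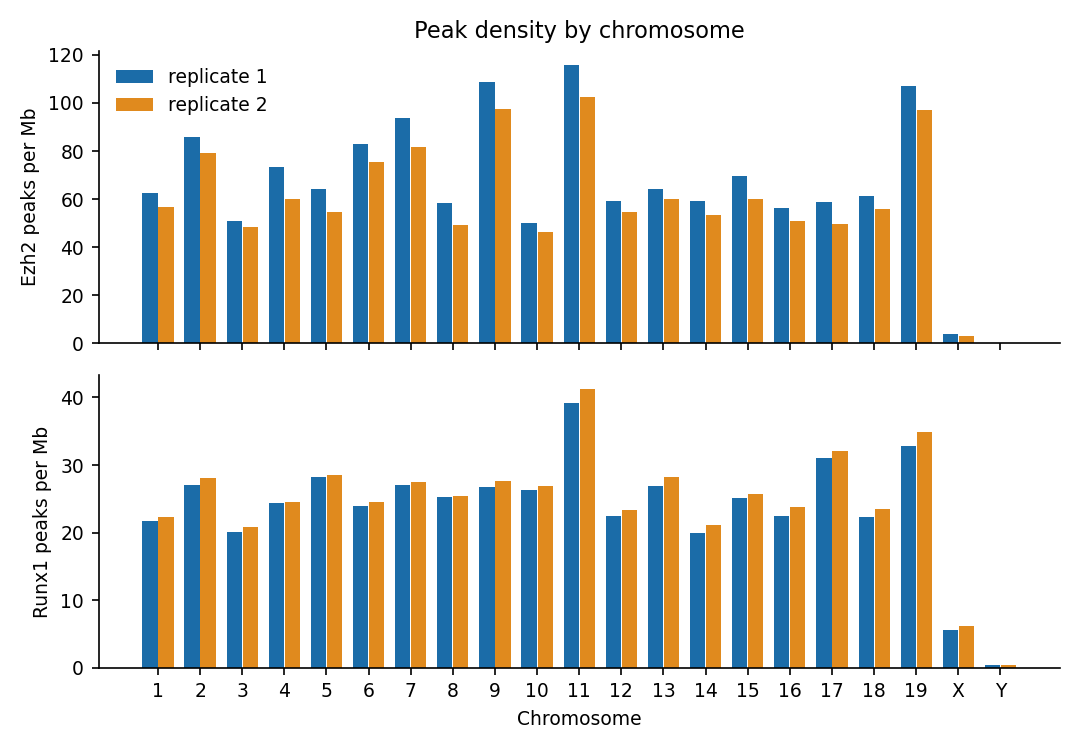
Peaks per Mb on each chromosome for Ezh2 (top) and Runx1 (bottom), replicate 1 in blue and replicate 2 in orange. Ezh2 density ranges from 49.9 to 116 per Mb over the autosomes in replicate 1 and is 3.62 per Mb on X, and Runx1 is at 5.59 per Mb on X in replicate 1.

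The 3 densest windows of 1 Mb, with 316, 299 and 256 regions, lay on chromosomes 9, 11 and 3. The window on chromosome 9 (45000001 to 46000000) held 122 regions in Dscaml1, a neuronal adhesion gene, and included Jaml. That on chromosome 11 (96000001 to 97000000) held Skap1 with 134 regions and Hoxb3 with 19. The window on chromosome 3 held Slc6a17 and the potassium channel genes Kcna2 and Kcnc4. The next 2 were on chromosome 1 around Nfasc, a gene of the axon initial segment, with 238 regions, and on chromosome 7 around Lsp1 and the troponin gene Tnnt3, with 233.

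Of 21887 protein-coding genes, 5374 had 1 or more Ezh2 regions in the span between their ends, or 24.6%. In 1858, or 8.49%, there were 5 or more, and in 377 there were 20 or more. Regions that touched a gene were 50.0% of the map, and spans of genes covered 37.9% of the chromosomes. Long genes met Ezh2 more often but were not denser in it. Of genes under 5 kb 9.48% had a region, and of those of 300 kb and more 63.2% did. Per 10 kb of span, however, the rates were 0.609 and 0.178 regions. A region that only touches a span counts in full, which raises the rate of short genes. For genes of 10 to 30 kb the rate was 0.395. Among genes with a region the median was 1.05 per 10 kb.

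By number of regions, Cacna1c and Skap1 led. Cacna1c, the pore subunit gene of a voltage-gated calcium channel on chromosome 6 (118587240 to 119197384), had 137 regions. They came from 300 peaks in replicate 1 and 267 in replicate 2, which covered 16.4% and 15.2% of its 610145 bp. Skap1 had 134 regions, covering 28.9% and 30.8%. Kalrn, a gene of synapse structure in neurons, had 131, and Dscaml1 had 122 with coverage of 28.8% and 20.1%. Shank2, a postsynaptic scaffold gene, had 113. Itsn1 had 108 regions, which covered 40.2% and 38.8%, and its highest region was the one on its promoter. Myo1d, Dock3, Sorcs2 and Jazf1 had 91 to 101. Itsn1 and Kalrn had highest regions with mean folds of 29.5 and 15.9, and Jazf1, the next, had 9.04.

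Per length, other and shorter genes led. Among spans of at least 10 kb with at least 5 regions, Hpcal4, a neuronal calcium sensor gene, had 8.93 regions per 10 kb and was covered to 59.4% and 53.5%. Tectb, a gene of the inner ear matrix, followed with 8.34, the skin keratin gene Krt77 with 8.20 and the skin lipoxygenase gene Alox12b with 7.86. Lyg2, Scn2b, Carmil3, the meiosis gene Meiob, Sertad4 and Phyhip had 7.07 to 7.57. By the share covered, among spans of at least 10 kb with any number of regions, Hoxc6 led with 92.2% and 94.8% in replicates 1 and 2. The phosphatase gene Dusp15 had 85.8% and 91.4%, Prrt4 had 86.0% and 77.8%, and Hoxc4 had 76.0% and 79.9%. Phyhip, Scn4b, Atoh8, Meox1, Sp6 and Hpcal4 followed at means of 56.4% to 69.9%. Atoh8, Meox1 and Sp6 encode transcription factors of development.

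Gene spans of 20 kb or more numbered 10039, and 7948 of them had a known strand. In these, 390 regions with a mean fold of 5 or more were centred inside the span. Of these 69.2% were in the first of 10 equal parts from the 5′ end and 2.31% in the last. Of all 21702 regions in those genes 15.3% were in the first part, and each other part held 8.91% to 10.2%. Of 199 regions with a mean fold of 10 or more, 56.8% were centred within 1 kb of a start of a protein-coding gene. Of 856 with 5 to 10 it was 31.1%, and of 49316 under 3 it was 3.14%. The median distance to a start was 737 bp for the strongest class, 9715 bp at 5 to 10 and 38792 bp for the weakest. Of the regions with a fold of 5 to 10, 25.1% were more than 50 kb from a start.

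**Figure D4:**
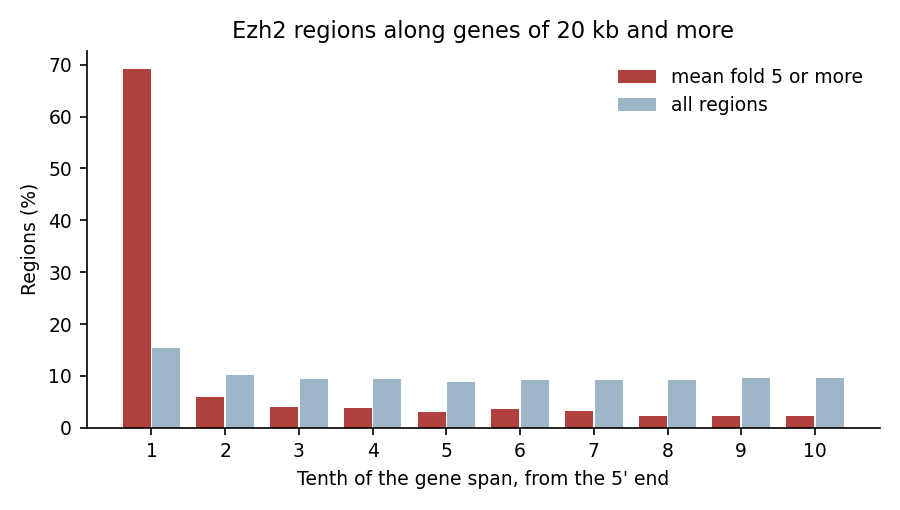
Share of Ezh2 regions (%) whose centre falls in each of 10 equal parts of the gene span, counted from the 5′ end, in genes of 20 kb or more, for regions with a mean fold of 5 or more (red, 390 regions) and all regions (pale blue, 21702 regions). The first part holds 69.2% of the strong regions and 15.3% of all.

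The promoter table matched 17492 of the 21887 genes, or 79.9%, with 21263 windows, so the values hold for those windows and a check over all genes is void. Ezh2 peaks of both lists touched 1833 windows, or 8.62%, and 469, or 2.21%, were touched by a region with a mean fold of 5 or more. The 469 windows had a median of 25 CpG pairs and 67.3% G+C, all touched windows had 18 and 62.0%, and all windows had 13 and 56.3%. With 30 or more CpG pairs 5.18% of 3283 windows carried a strong region, against 0.116% of 6035 windows with 4 or fewer. Cpeb3, printed above, is among the 7 windows behind that last value. The share touched at any fold rose less, at 12.5% and 4.59% for the same classes.

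Short motifs were also counted. The letters CGCG were in 80.6% of the 469 strong windows and 49.2% of all windows. The letters GAGAG or their complement were in 65.2% and 62.0%. The core letters of the RUNX motif, TGTGGT or their complement, were in 9.17% and 14.97%. The 4 strong windows printed above hold CGCG and GAGAG and lack TGTGGT, and that of Cpeb3 holds GAGAG only. CGCG reads the same on both strands, and matches of CGCG and GAGAG may share the G at their ends. The strong windows also held more CpG pairs and G+C, as given above, and motif shares were not compared at equal composition. A match is a description, not a site.

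Of 46 gene families defined by their symbols, 22 had more regions per 10 kb than all protein-coding genes together, which had 0.316, and 24 had fewer. Counts of genes are read against the 24.6% of all genes with a region. That share depends on length, from 9.48% of genes under 5 kb to 63.2% of those of 300 kb and more. Families of short or long genes are not matched for it. Members of a family that lie side by side share regions, so regions were counted once over the merged spans of a family. A region that only touches a span counts in full, which raises the rate per 10 kb of families with short genes. No test was run on the families.

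By regions per 10 kb the Hox genes were highest of the 46 families, followed by the keratin genes and the Nk homeobox genes. Of 39 Hox genes 29 had a region, with 3.38 regions per 10 kb, 10.7 times the value of all genes, and the peaks covered 45.3% and 42.6% of their span. Hoxb3 held 19 regions, Hoxc4 10 and Hoxc13 7. Of 14 Nk homeobox genes 8 had one, at 3.15 per 10 kb, among them the neural gene Nkx2-2 with 6 regions. At a q threshold of 0.01, 14.3% of Nk homeobox genes had a region, beside 12.2% of all genes. At 1e-05 it was 0%, beside 5.90% of all genes. All 9 Pax genes had one, at 2.05 per 10 kb. Pax2, a kidney and eye gene, had 37 regions with coverage of 38.3% and 29.9%, and Pax5, the B lineage factor gene, had 36 with 19.3% and 13.7%. Of 12 Lim homeobox genes 9 were touched, led by Lmx1b with 24 regions. Iroquois and sine oculis homeobox genes had 7 of 12, at 1.81 per 10 kb. T-box genes had 11 of 17, with 16 regions in the heart and limb gene Tbx5.

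Of the GATA factor genes, 1 held most of the regions. Gata4, the heart and gut member, had 39 regions covering 40.5% and 41.9% of its span. Gata5 had 3 and Gata3, the T lineage member, had 2, the highest with a mean fold of 8.82. The other 3 of 6 had 0. The Runx genes and Cbfb had 0 regions in 4 genes. Forkhead and Sox genes had a region in 14 of 44 and 7 of 20, or 31.8% and 35.0%. Their median spans were 5.19 and 4.79 kb. Among all genes, 9.48% of those under 5 kb and 19.7% of those of 5 to 10 kb had a region. Sox6, a long gene, held 61 of the 75 Sox regions, and its peaks numbered 113 in replicate 1 and 176 in replicate 2.

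Among secreted signals the Wnt genes led. A region lay in 17 of 19, at 2.17 per 10 kb, with 23 in Wnt3a, 20 in Wnt3 and 13 in Wnt8b. Wnt3a was covered to 47.4% and 40.6%. The Wnt receptors of the Frizzled family had 4 of 10, of which Fzd3 held 15 regions. Bmp and Gdf genes had 7 of 21, with 23 regions in Bmp1, a procollagen protease gene. Fibroblast growth factor genes had 14 of 22, with 26 in Fgf1. Notch receptors and ligands had 4 of 9 with few regions, though the ligand genes Dll4 and Dll1 had mean folds of 15.9 and 13.8 at their highest.

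Calcium channel genes had a region in 15 of 22, at 1.21 per 10 kb, and Cacna1d held 58 and Cacna1a 42. Potassium channel genes had 52 of 92, led by Kcnq1 with 90 and Kcnn3 with 58. Sodium channel genes had 7 of 14. Glutamate receptor genes had 19 of 28, but with long spans their rate was 0.131 per 10 kb. Collagen genes had 31 of 44, with 33 regions in Col23a1, 30 in Col5a1 and 26 in Col4a2. Keratin genes had 42 of 49, at 3.27 per 10 kb, with 9 regions each in Krt77 and Krt78 and 8 in Krt2. Coverage of keratin genes was uneven between replicates, at 26.4% and 18.1%. At a q threshold of 1e-05, 4.08% of keratin genes had a region, beside 51.3% of Hox genes, 55.6% of Pax genes and 5.90% of all genes.

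Solute carrier genes had a region in 139 of 375, led by the glutamate transporter gene Slc1a2 with 51. Integrin genes had 13 of 31, with 19 in Itga3, and Adam and Adamts genes had 25 of 53. Laminin genes had 6 of 11, and Cadherin genes had 8 of 23, with 45 in Cdh23, a gene of hearing. Ephrin and Eph receptor genes had 14 of 22, and semaphorin and plexin genes 10 of 29, at 0.205 and 0.189 regions per 10 kb. Interleukin and receptor genes had 31 of 82, with 29 in Il17rd, an inhibitor of growth factor signalling, and chemokine genes had 11 of 53. Protocadherin genes had 36 of 69, but their nested spans hold the same stretch, and the 36 together met 15 regions.

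Genes used by every cell seldom had an Ezh2 region in their span. Cytosolic ribosomal protein genes had a region in 0 of 84, histone genes in 0 of 68, mitochondrial ribosomal protein genes in 2 of 78 and proteasome subunit genes in 1 of 39. Short spans meet fewer regions. Of all genes under 5 kb 9.48% had one, and the median spans of the first pair of families were 3.18 and 0.498 kb. Those of the other pair were 7.69 and 12.3 kb. Of all genes of 5 to 10 kb 19.7% had a region, and of those of 10 to 30 kb 22.6%. With spans extended by 5 kb the shares of these families, in the order given, were 7.14%, 0%, 14.1% and 10.3%, beside 30.8% of all genes. Families of sensory receptors, silent in most tissues, also have short spans, and few of their genes were touched. Vomeronasal receptor genes, with a median span of 0.960 kb, had 8 of 353, or 2.27%, at 0.0223 regions per 10 kb. Olfactory receptor genes, with a median span of 0.950 kb, had 72 of 1110, or 6.49%. Their rate of 0.443 per 10 kb was above the 0.316 of all genes, but short spans raise such a rate, as described above. By covered share they were nearer to all genes. Peaks covered 3.37% and 2.88% of their span in replicates 1 and 2, beside 2.87% and 2.44% for all genes. Zfp genes had 52 of 397.

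Of 12 genes of Polycomb repressive complex 2 and its accessory factors, Phf19 and Jarid2 had 1 region each, with mean folds of 6.87 and 5.89. Both encode factors that bring the complex to chromatin. Of 24 genes of Polycomb repressive complex 1 and related factors 5 were touched. Bmi1 had 1 region, the strongest of the map, with a mean fold of 83.9 ± 9.17 (SD, n = 2). Cbx7, whose protein binds the mark, had 6 regions of up to 3.61, Pcgf5 had 2 of up to 4.20, and Phc1 had 1 of 2.90. L3mbtl3 had 2, 1 of them that of its promoter. The shares of genes with a region were 16.7% and 20.8% in the 2 families, beside 24.6% of all genes, and 33.3% and 54.2%, beside 30.8%, with spans extended by 5 kb. At a q threshold of 1e-05 they were 16.7% in each family, beside 5.90% of all genes.

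**Figure D5:**
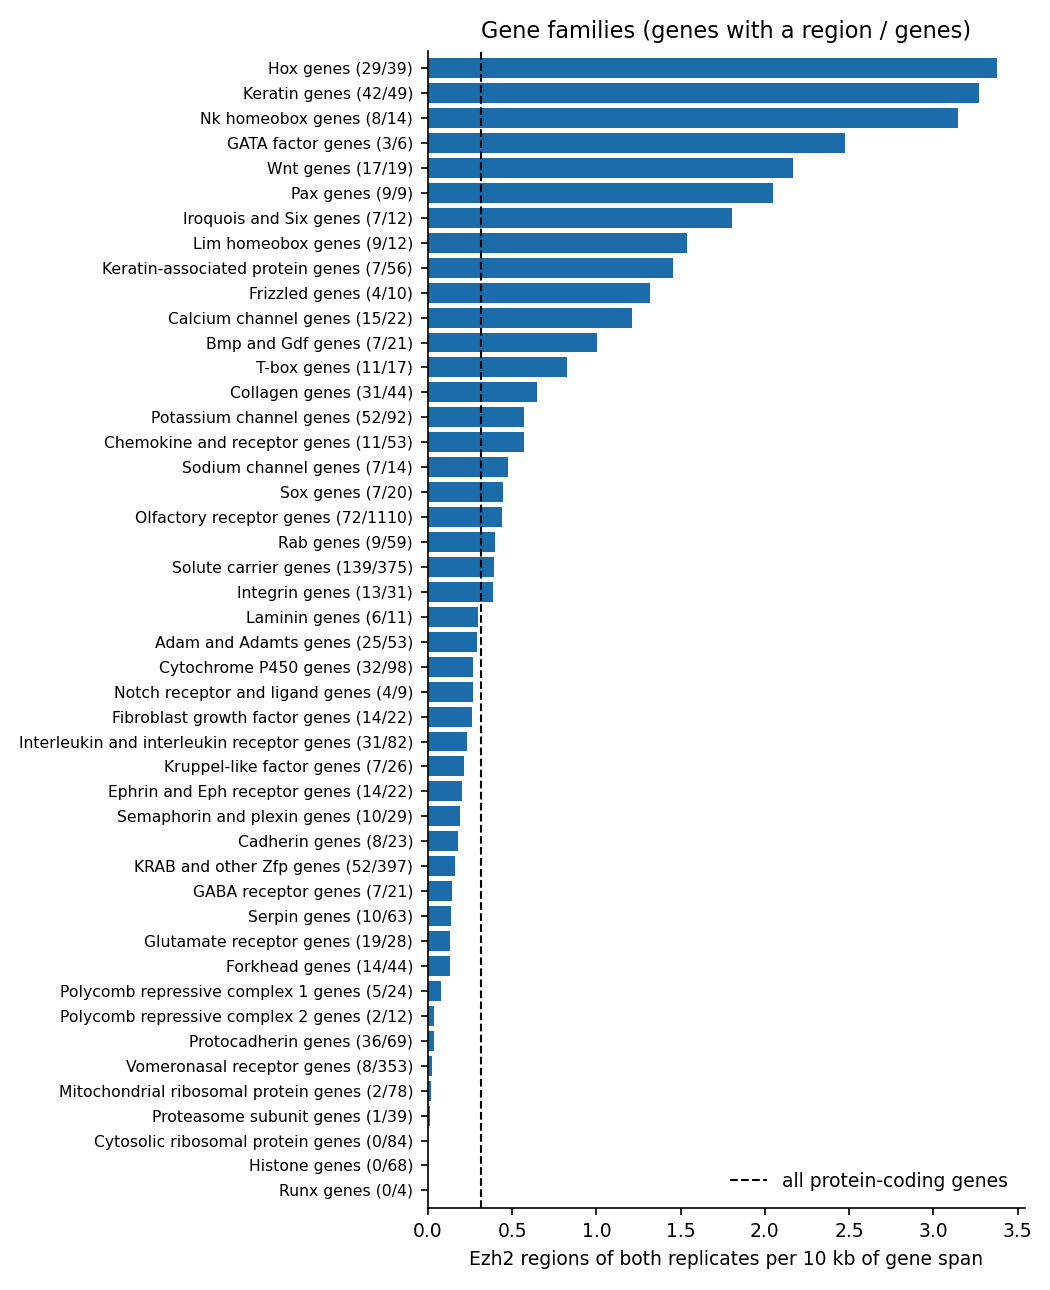
Ezh2 regions of both replicates per 10 kb of merged gene span in 46 gene families, with the number of genes touched over the number of genes in brackets and the value of all protein-coding genes, 0.316, as a dashed line. Hox, keratin and Nk homeobox genes are above 3 regions per 10 kb, and ribosomal protein, histone and Runx genes are at or near 0.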

How the data were processed

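The labels give 2 Ezh2, 2 Runx1 and 2 H3K27me3 ChIP-seq libraries and 2 inputs from EML_C1 cells. Tools named by the submitters' processing notes are MACS2 2.0.10, Bowtie2 2.2.1, SAMtools and Picard, with build mm10 and no roles or parameters. The authors deposited 1 peak list for each library with an antibody. Each Ezh2 and Runx1 list gives for every peak a fold enrichment (a linear ratio), a p-value and a q-value on the −log10 scale, a score that was not used and a summit, as deposited. The weakest deposited peaks had p-values of 0.0493 and 0.0499 for Ezh2. The files hold no read totals, so the depth of each library is unknown. Some genes are not reported here. H3K27me3 peaks were only counted, and inputs were not analysed here.

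Coordinates are counted from 1 on mm10, whose chromosomes are those of GRCm38.p6, the assembly of the RefSeq gene and promoter tables. Chromosome lengths were taken as the last peak or gene end. Python 3.11.15, pandas 2.3.3 and numpy 2.4.6 computed overlaps, clusters and counts, and the measures were tested on simulated peak lists. Peaks that only abut were not merged. Intervals cover counting error only. An ± is the SD over the 2 replicates. Genes were named by rank: the leading 10 by count, rate, coverage, cluster or fold, the widest 5 regions, the 5 strongest unpaired peaks of each list and up to 3 leading members a family. The genes of the densest windows, the families' other values, Phc1 and the printed promoters were chosen after values were seen. The members, families and lists were chosen with earlier results of these data known. With 2 libraries against 2, an exact permutation test cannot go below p = 0.333, so no test was run.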

Additional observations from a re-analysis of the deposited data

How the results depend on the processing

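No paired analysis was possible because no test between groups was made. Most values depended on which peaks were kept, and the cause was not tested beyond the number of peaks and overlap rule that each setting changes. The mean share of peaks with a partner, 42.4 ± 3.70%, was 24.5% with an overlap of 50% of both peaks, 32.1% with the summit inside the other peak, 36.1% at a q of at most 0.01 and 51.7% at 1e-05. With the 10000 peaks of lowest p in each list, called the strongest in this section, it was 41.05%, while the 10000 of highest fold gave 33.4% and 33.5% in replicates 1 and 2. The number of regions, 65288, was 40963 with the 50% overlap, 9089 at 0.01, 2112 at 1e-05 and 3739 with the 10000 strongest. Their median width, 469 bp, was 397, 813, 1626 and 1202 bp in that order. The width ratio, 1.32, was 1.72 at 0.01, 2.09 with the 10000 strongest and 1.29 with the 50% overlap. The median summit distance, 91.0 bp, was 114 bp over all overlapping pairs, 79.0 bp at 0.01, 57.0 bp at 1e-05 and 68.0 bp with the 10000 strongest. The share in clusters, 46.3%, was 24.4% and 63.2% with gaps of at most 2 and 10 kb, 10.0% at 0.01, 1.99% at 1e-05, 35.5% with as many regions as Runx1 has, and 60.7% to 63.7% with the peaks of 1 replicate alone. Genes with a region, 5374, numbered 2677 at 0.01, 1291 at 1e-05, 6744 with spans extended by 5 kb, and 7180 to 8096 with 1 replicate alone. The median rate, 1.05 per 10 kb, was 0.796 with extended spans, 0.385 at 0.01, and 1.61 to 1.82 with 1 replicate alone. The median share of genes touched over the 46 families, 37.4%, was 44.7% with extended spans, 21.1% at 0.01, 9.19% at 1e-05, and 53.0% to 57.5% with 1 replicate alone. Of the 46 families, 40 stayed on the same side of the share of all genes at 0.01 and 35 at 1e-05. Those that crossed at 1e-05 included T-box, Nk homeobox and keratin genes, and those of both Polycomb complexes, which also crossed at 0.01 and with extended spans. Depth is unknown, and its part in peaks found in 1 list only was not tested.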
